A study of Mus musculus with 71 samples.

Results

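The genes described here are 10 genes of the FGF-ERK pathway, chosen by name among the 24138 genes named in the RNA-seq tables. They are the ligand gene Fgf4, the receptor genes Fgfr1 and Fgfr2, the feedback inhibitor genes Dusp6, Spry2, Spry4 and Spred1, and the transcription factor genes Etv4, Etv5 and Egr1. They were followed in R1 mouse embryonic stem cells (mESCs) of 2 genotypes, wild type (WT) and H1-TKO, in which CRISPR/Cas9 was used to knock out H1c, H1d and H1e, genes of linker histones, and single-cell clones were picked. Both were grown with LIF and serum. RNA-seq comprised 2 libraries per genotype. Of H3K27me3 ChIP-seq, the peaks listed for replicate 1 of each genotype were used.

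The sample labels and the tables give opposite genotypes for the 4 RNA-seq libraries. Genotypes were taken from the names of the tables here, and the sample labels would turn every RNA difference below around. Each table also equalled the column of the same genotype in the study's source table in 100% of the rows compared. The knocked-out genes had few reads. H1d (H1f3) had 5 and 38 reads in the libraries taken as WT and 1 and 0 in those taken as H1-TKO, and H1e (H1f4) had 7 and 18 against 0 and 2. Both ran with the names of the tables, while H1c (H1f2), with 15 and 52 against 17 and 7 reads, overlapped. The replicates are described by the study as biologically independent, and whether they came from separate clones is not stated in the sources used here.

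Fibroblast growth factors bind receptor tyrosine kinases at the cell surface and, through adaptor proteins, Ras and Raf, activate the kinases MEK and ERK. Active ERK induces transcription factors of the ETS and EGR families and, with them, inhibitors that act back on the pathway. In mESCs, FGF4 made by the cells themselves is the main signal of this kind, and it primes the cells to leave the naive pluripotent state.

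Not all 10 genes could be measured. The tables list RefSeq transcripts, and reads that several transcripts of a gene share were not assigned to any of them. Fgfr1 with 3 transcripts, Fgfr2 with 2 and Spred1 with 2 are therefore not measured as genes. The other 7 have 1 transcript each and passed the filter of a mean normalized count of at least 10. A normalized count is the number of reads divided by the size factor of the library. The libraries held 8292007 to 10538507 recovered reads in WT and 6951619 to 7346122 in H1-TKO mESCs, and the 7 genes had between 472 and 4901 reads each in every library.

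The sequences that frame the results are the start of the ligand gene, whose level differed between the genotypes, and a stretch of the receptor gene that carried an H3K27me3 peak in 1 genotype. The first holds the 250 bases before and the 50 bases after the start of Fgf4 from RefSeq (GRCm38.p6, chr7:144861136-144861435, plus strand). The same bases stand at chr7:152047041-152047340 in mm9, the build of the tables. The second lies in the first intron of Fgfr2, read from mm9 at chr7:137409008-137409307 on the minus strand, inside the WT peak that covers the start. Capitals mark CpG.
Fgf4 promoter: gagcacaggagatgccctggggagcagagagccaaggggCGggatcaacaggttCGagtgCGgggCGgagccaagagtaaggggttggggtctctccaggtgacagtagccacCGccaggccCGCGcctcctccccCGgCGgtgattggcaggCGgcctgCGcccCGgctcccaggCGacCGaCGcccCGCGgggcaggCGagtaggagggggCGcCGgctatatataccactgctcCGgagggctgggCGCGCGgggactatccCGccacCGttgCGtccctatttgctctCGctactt
Fgfr2 intron: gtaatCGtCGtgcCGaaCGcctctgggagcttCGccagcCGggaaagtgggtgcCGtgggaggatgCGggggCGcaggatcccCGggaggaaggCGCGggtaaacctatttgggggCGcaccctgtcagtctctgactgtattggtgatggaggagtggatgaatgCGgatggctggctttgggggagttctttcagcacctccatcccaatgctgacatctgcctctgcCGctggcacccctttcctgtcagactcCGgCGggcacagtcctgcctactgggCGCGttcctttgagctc

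The Fgf4 promoter held 28 CpG in 300 bases, a number that 14.2% of all 32851 RefSeq promoters of this length reached. The Fgfr2 stretch held 19. RefSeq promoters were found for 6 of the 10 genes, with 2 for Etv5, and not for Fgfr1, Spry4, Etv4 and Egr1. Spred1 had the most CpG with 40, followed by Etv5 with 37 and 19, Spry2 with 28 and Dusp6 with 19. The Fgfr2 promoter of RefSeq was the exception, with 4 CpG against a median of 7 over all promoters. The letters CCGGAAGT of an ETS site, TGACGTCA of a CRE and GCGTGGGCG of an EGR site, searched on both strands, were in 0 of these 7 promoters. They were in 3.89%, 1.79% and 0.612% of all promoters. The CArG box, the binding site of SRF, was also in 0 of 7 and in 1.63% of all.

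Across the table, 11113 transcripts were tested with limma, and 20.5% passed an adjusted p of 0.05, 9.84% with a higher and 10.7% with a lower level in H1-TKO mESCs. Of the 7 measured genes, 1 was higher (Fgf4), 2 were lower (Spry4 and Etv4) and 4 did not pass. Their median log2 difference was −0.31, against −0.03 over all transcripts tested. The libraries of the genotypes did not overlap for 5 of the 7 genes, and for 66.4% of all transcripts tested, so this share was near the background. A lower level can mean fewer cells of a type or less RNA per cell, which cannot be told apart in these libraries.

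Fgf4, on chr7:152047291-152051148 in mm9 with 3 exons, encodes the secreted ligand. Its normalized counts were 1959 and 2117 in both WT libraries, against 3360 and 3620 in those of H1-TKO mESCs. Both H1-TKO libraries were above both WT libraries, and replicates of either genotype lay close together. Fgf4 rose by 0.78 on the log2 scale (SE 0.12, adjusted p = 0.00804), which is 1.71-fold on the scale of normalized count + 1. The difference between single libraries ranged from 0.67 to 0.89. A difference this large in either direction was found for 31.3% of all transcripts tested. Without H1-TKO replicate 1 the log2 difference was 0.83, and without H1-TKO replicate 2 it was 0.72. Neither passed 0.05 in these fits, in which the spread came from the WT libraries alone.

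**Figure D1:**
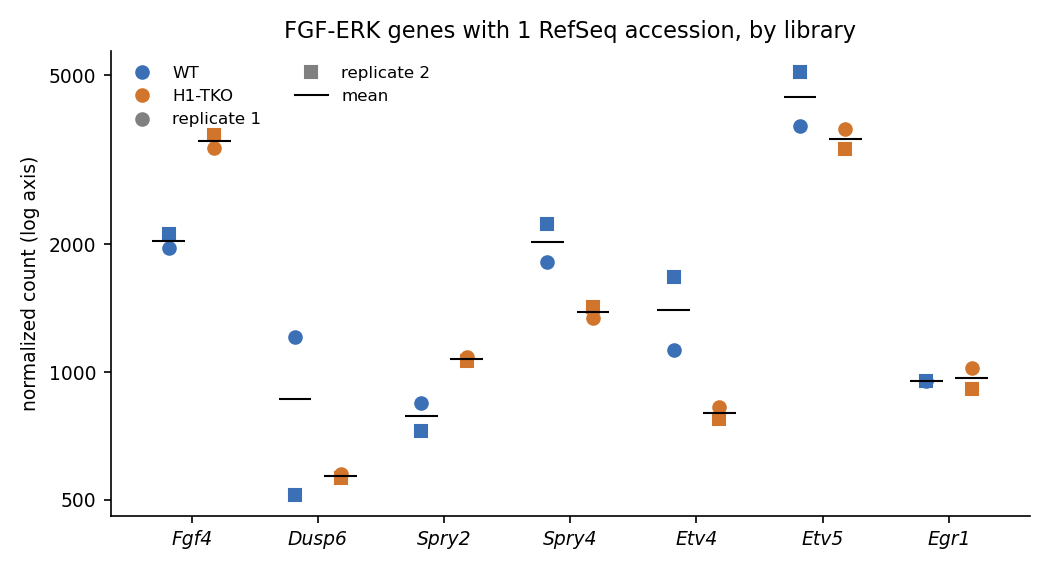
Normalized count (log axis) of the 7 measured genes in each library, with WT in blue and H1-TKO in orange, circles for replicate 1, squares for replicate 2 and lines for the mean. The H1-TKO libraries lie above the WT libraries for Fgf4 (3360 and 3620 against 1959 and 2117), and the WT libraries lie far apart for Dusp6 (1209 and 514.8).

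The receptors FGFR1 and FGFR2 pass the signal to the adaptor FRS2, and FGFR1 is the main one in mESCs. The 3 transcripts of Fgfr1 were each at 0 in the 4 libraries, which shows only that no read was assigned to 1 of them alone. The more abundant transcript of Fgfr2 had normalized counts of 18.6 and 1.1 in WT against 12.1 and 20.01 in H1-TKO libraries. The other had 1.6, 3.3, 1.1 and 7.4 in the same order. Both overlapped between the genotypes, and the first had a log2 difference of 1.37 with an SE of 1.09 (adjusted p = 0.395). It was 2.99 without WT replicate 1 (adjusted p = 0.0102), where the remaining WT library had 1 read, −0.24 without WT replicate 2 (adjusted p = 0.823) and 0.65 with edgeR (adjusted p = 0.664). As these values stand for parts of the reads, the receptor genes were not compared.

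Of the 3 feedback inhibitors measured, Spry4 passed the test, with a lower level, and Spry2 and Dusp6 did not. Sprouty proteins, encoded by Spry2 and Spry4, block the pathway between the receptor and Raf. Spry4 had normalized counts of 1811 and 2234 in WT against 1340 and 1426 in H1-TKO libraries. Its libraries did not overlap, and it fell by 0.54 on the log2 scale (SE 0.15, adjusted p = 0.0405). This call rests on both H1-TKO libraries, since the adjusted p was 0.332 without H1-TKO replicate 1, with a log2 difference of −0.50, and 0.242 without H1-TKO replicate 2, with −0.59. It was 0.0804 when transcripts with low counts were kept. Of all transcripts tested, 45.3% had a difference as large.

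Spry2, on chr14:106291166-106296036, had 845.6 and 726.4 normalized counts in WT against 1082 and 1063 in H1-TKO libraries. Both H1-TKO libraries were above the WT libraries. The log2 difference of 0.45 (SE 0.15) did not pass the threshold, with an adjusted p of 0.0672. It passed when a WT library was left out, with 0.56 (adjusted p = 3.93e-06) without WT replicate 1 and 0.34 (adjusted p = 0.00613) without WT replicate 2. In these fits the remaining WT library is taken to vary like the H1-TKO libraries, which lay within 0.03 on the log2 scale for Spry2, and 49.2% and 44.5% of all transcripts passed in them.

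Within a library, the ratio of Spry2 to Spry4 reads does not depend on scaling between libraries. It was 0.467 and 0.325 in WT against 0.808 and 0.745 in H1-TKO libraries. Fgf4 had 1.08 and 0.948 reads for each read of Spry4 in WT, and 2.51 and 2.54 in H1-TKO libraries. Both ratios were higher in the H1-TKO libraries with no overlap. These pairs were chosen after their values were seen, and the ratios were not tested.

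Dusp6, on chr10:98725865-98730122, encodes a phosphatase that inactivates ERK in the cytoplasm, and its RNA is a common readout of the pathway. It had normalized counts of 1209 and 514.8 in WT against 576.2 and 563.5 in H1-TKO libraries. The H1-TKO libraries agreed closely with each other and lay between the WT libraries, which were 1.23 apart on the log2 scale. Only 8.76% of all transcripts tested had WT libraries as far apart. The log2 difference was −0.47 with an SE of 0.35 (adjusted p = 0.369). It was 0.15 without WT replicate 1 (adjusted p = 0.395) and −1.08 without WT replicate 2 (adjusted p = 5.06e-17). The fits with 1 WT library take its spread from the H1-TKO libraries, which were 0.03 apart for Dusp6, and 44.5% of all transcripts passed without WT replicate 2. The direction thus depended on which WT library was kept.

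SPRED1, related to the Sprouty proteins, restrains Ras by recruiting neurofibromin. The more abundant of the 2 Spred1 transcripts had normalized counts of 985.3 and 723.2 in WT against 552.0 and 506.6 in H1-TKO libraries, without overlap. Its log2 difference was −0.67 (SE 0.19, adjusted p = 0.0450), and the other transcript had at most 6.5 normalized counts in a library. This difference was −0.74 without H1-TKO replicate 1 and −0.61 without H1-TKO replicate 2. It did not pass in these fits, in which the spread came from the WT libraries alone. It also did not pass when transcripts with low counts were kept (adjusted p = 0.0890). These differences cover only reads assigned to the more abundant transcript alone and are not those of the gene.

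ETV4 and ETV5 are ETS transcription factors of the PEA3 group, induced by FGF signals. Etv4, on chr11:101631061-101646685 with 13 exons, had 1129 and 1673 normalized counts in WT against 826.3 and 776.2 in H1-TKO libraries. The groups did not overlap, and Etv4 fell by 0.78 on the log2 scale (SE 0.20, adjusted p = 0.0343). The adjusted p was 0.128 without H1-TKO replicate 1 (log2 difference −0.82), 0.176 without H1-TKO replicate 2 (log2 difference −0.73) and 0.0742 when transcripts with low counts were kept. Transcripts of chromosome 11 had a median log2 difference of −0.37 over 913 tested, and Etv4 was 0.40 below that median (−0.40). The part of that chromosome-wide difference in the Etv4 result was not tested.

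Etv5, on chr16:22381382-22439792, had 3802 and 5086 normalized counts in WT against 3731 and 3353 in H1-TKO libraries. The lower WT library was just above the higher H1-TKO library, by 0.03 on the log2 scale. The log2 difference was −0.31 with an SE of 0.16 (adjusted p = 0.193). It passed the threshold without WT replicate 1, with −0.52 (adjusted p = 4.03e-12), and did not without WT replicate 2, with −0.10 (adjusted p = 0.256). Here too the spread came from the H1-TKO libraries alone, and 49.2% of all transcripts passed without WT replicate 1. The ratio of Etv4 to Etv5 reads was 0.297 and 0.329 in WT against 0.222 and 0.231 in H1-TKO libraries, and it was not tested either.

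EGR1 is a zinc finger protein of the immediate early response, which ERK induces within minutes of a signal. Egr1 had 953.5 and 952.2 normalized counts in WT against 1025 and 913.1 in H1-TKO libraries. The WT libraries lay between the H1-TKO libraries. Its log2 difference was 0.02 with an SE of 0.14 (adjusted p = 0.926), the smallest of the 7 genes.

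**Figure D2:**
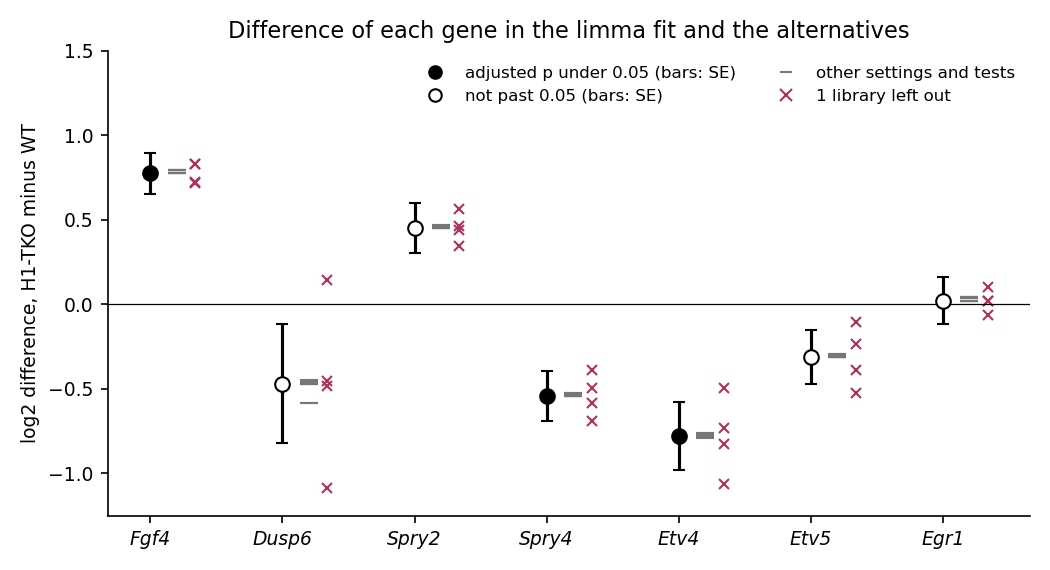
Log2 difference between H1-TKO and WT for each measured gene, with its SE as a bar, and beside it the value under other settings and tests (grey dashes) and with 1 library left out (red crosses). Fgf4, Spry4 and Etv4 are filled because they passed an adjusted p of 0.05, and Dusp6 ranged from −1.08 to 0.15 when 1 library was left out.

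Levels of different genes were compared per kilobase of the longest protein-coding transcript. In WT libraries Etv5 was highest, with 957 and 1280 normalized counts per kilobase, followed by Fgf4 with 647 and 699. Etv4 had 471 and 699 per kilobase and was not separated from Fgf4. In H1-TKO libraries Fgf4 was highest, with 1109 and 1195 per kilobase, above Etv5 with 939 and 844. Spry2 came next with 519 and 510 per kilobase. Etv4 (345 and 324), Egr1 (331 and 295) and Spry4 (292 and 311) followed per kilobase, and neighbours in this order overlapped. Dusp6 was lowest, with 206 and 202 per kilobase. Spry4 had 395 and 487 per kilobase in WT, where its range overlapped the 406 and 348 of Spry2.

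Markers of cell state differed between the same libraries. Of 8 naive pluripotency markers tested, Sox2, Klf4, Klf5, Tfcp2l1 and Dppa5a rose and none fell, while Klf2, Zfp42 and Prdm14 did not pass. Over all transcripts tested, 9.84% were higher and 10.7% lower. Pou5f1, Nanog, Esrrb and Tbx3 of the same list have several transcripts and are not measured. The more abundant Pou5f1 transcript had 2642 and 5110 in WT against 2586 and 2908 in H1-TKO libraries (log2 difference −0.42, adjusted p = 0.301). The summed normalized count of the list of 12 was 28351 and 39456 in WT against 53710 and 53824 in H1-TKO libraries. In this sum and those below, genes that are not measured count only by reads assigned to a single transcript. Of 3 formative or primed markers tested, Pou3f1 and Zic2 fell. The list summed to 585.7 and 519.2 in WT against 76.0 and 91.6 in H1-TKO libraries. Fgf5, Otx2, Dnmt3b and Lef1 of this list have several transcripts and are not measured, so its sum rests mostly on Pou3f1 and Zic2. Krt8, 1 of 3 trophectoderm markers tested, Nes and Tubb3 of the neural list and Col1a1 of the fibroblast list fell, and Thy1 of the fibroblast list rose. Tfcp2l1, Col1a1 and Tubb3 lie on chromosomes 1, 11 and 8, whose medians were 0.50, −0.37 and −0.24. Less these medians their log2 differences were 0.47, −1.59 and −0.63, against 0.97, −1.97 and −0.87 before. The trophectoderm list summed to 3821 and 907.5 in WT against 530.0 and 640.4 in H1-TKO libraries, and WT replicate 1, in which Dusp6 was high, stood apart there. Of the same list Tfap2c has several transcripts and is not measured, and 1 of them had 15.5 and 28.4 in WT against 55.1 and 80.0 in H1-TKO libraries (log2 difference 1.61, adjusted p = 0.0497). The neural list summed to 3850 and 2297 in WT against 813.1 and 879.4 in H1-TKO libraries, and the fibroblast list to 353.8 and 298.9 in WT against 510.1 and 576.1 in H1-TKO libraries. Thy1 alone carried the higher sum of the fibroblast list, with 109.4 and 125.4 in WT against 449.5 and 510.8 in H1-TKO libraries, while the collagen gene Col1a1 had 195.5 and 148.3 against 34.2 and 53.7. Of the 7 primitive endoderm markers, 4 have several transcripts and are not measured. None of the primitive endoderm and mesoderm markers tested passed, and those lists summed to between 35.7 and 84.0 in each library. The part of these differences in the results on the FGF-ERK genes was not tested.

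The rest of the pathway was described with a list of 71 other genes. Of these, 47 were tested, 19 had several transcripts and are not measured, and 5 were under the filter. In H1-TKO mESCs 5 were higher and 6 lower, which is 23.4% and near the 20.5% of all transcripts, and the median log2 difference was −0.18. Leaving out an H1-TKO library left 4 transcripts of the list called without replicate 1 and 6 without replicate 2. Without WT replicate 1 there were 28, and without WT replicate 2 there were 29. These counts moved with the whole table, of which 5.43% and 5.26% passed without H1-TKO replicates 1 and 2, and 49.2% and 44.5% without WT replicates 1 and 2.

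Among the other ligands, Fgf17, of the FGF8 subfamily, had 593.5 and 482.1 normalized counts in WT against 95.9 and 54.8 in H1-TKO libraries. It fell by 2.87 on the log2 scale (SE 0.31, adjusted p = 0.00314), opposite to Fgf4. The 2 transcripts of Fgf5, a marker of the primed epiblast, were at 0 throughout, and the gene is not measured. Fgfr4 was the only other receptor measured. It had 41.9 and 74.2 normalized counts in WT against 362.5 and 280.2 in H1-TKO libraries, and it rose by 2.49 (SE 0.33, adjusted p = 0.00556).

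Of 17 adaptors, exchange factors, Ras and Raf genes, scaffolds and kinases tested, 2 passed, both higher, which is 11.8% against 20.5% of all transcripts tested. Frs3, a docking protein of the receptors, rose by 1.17 (adjusted p = 0.0320) and Rras, a small GTPase related to Ras, by 1.22 (adjusted p = 0.0242). The adaptor Grb2 had a log2 difference of −0.18 (adjusted p = 0.470). The MEK genes Map2k1 and Map2k2 had log2 differences of 0.32 (adjusted p = 0.143) and −0.48 (adjusted p = 0.137). Mapk3, which encodes an ERK kinase, had 1187 and 995 normalized counts in WT against 1410 and 1622 in H1-TKO libraries, without overlap, and a log2 difference of 0.48 (adjusted p = 0.0642).

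Of 12 other negative regulators tested, 4 fell, none rose and 8 did not pass, while 10.7% of all transcripts tested were lower and 9.84% higher. Dusp5, a nuclear phosphatase of ERK, fell by 1.59 on the log2 scale (SE 0.38, adjusted p = 0.0284). Spred2, related to Spred1, fell by 1.23 (SE 0.21, adjusted p = 0.0106), and it was 0.85 below the median of chromosome 11 (−0.85). Cbl, a ubiquitin ligase of activated receptors, fell by 1.18 (SE 0.17, adjusted p = 0.00638). Il17rd, also known as Sef, an inhibitor of FGF signals at the membrane, had 929.4 and 1016 normalized counts in WT against 537.7 and 602.4 in H1-TKO libraries and fell by 0.77 (SE 0.15, adjusted p = 0.0154).

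Of 12 other transcription factors, immediate early genes and targets tested, 2 rose and 1 fell, which is 25.0% and near the 20.5% of all transcripts tested. Ccnd1, which encodes cyclin D1 of the G1 phase, had 1989 and 2267 normalized counts in WT against 931.0 and 890.0 in H1-TKO libraries and fell by 1.22 (SE 0.14, adjusted p = 0.00343). Fos, an immediate early gene, rose by 1.05 (SE 0.30, adjusted p = 0.0489) at 50.4 to 110.2 normalized counts. Elk4, a partner of SRF, rose by 0.88 (SE 0.19, adjusted p = 0.0199). Chromosome 1, on which Elk4 lies, had a median of 0.50, and Elk4 was 0.38 above it. The related Elk3 has 2 transcripts and is not measured, and 1 of them had 68.3 and 69.8 normalized counts in WT against 146.5 and 150.6 in H1-TKO libraries (log2 difference 1.09, adjusted p = 0.0297).

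**Figure D3:**
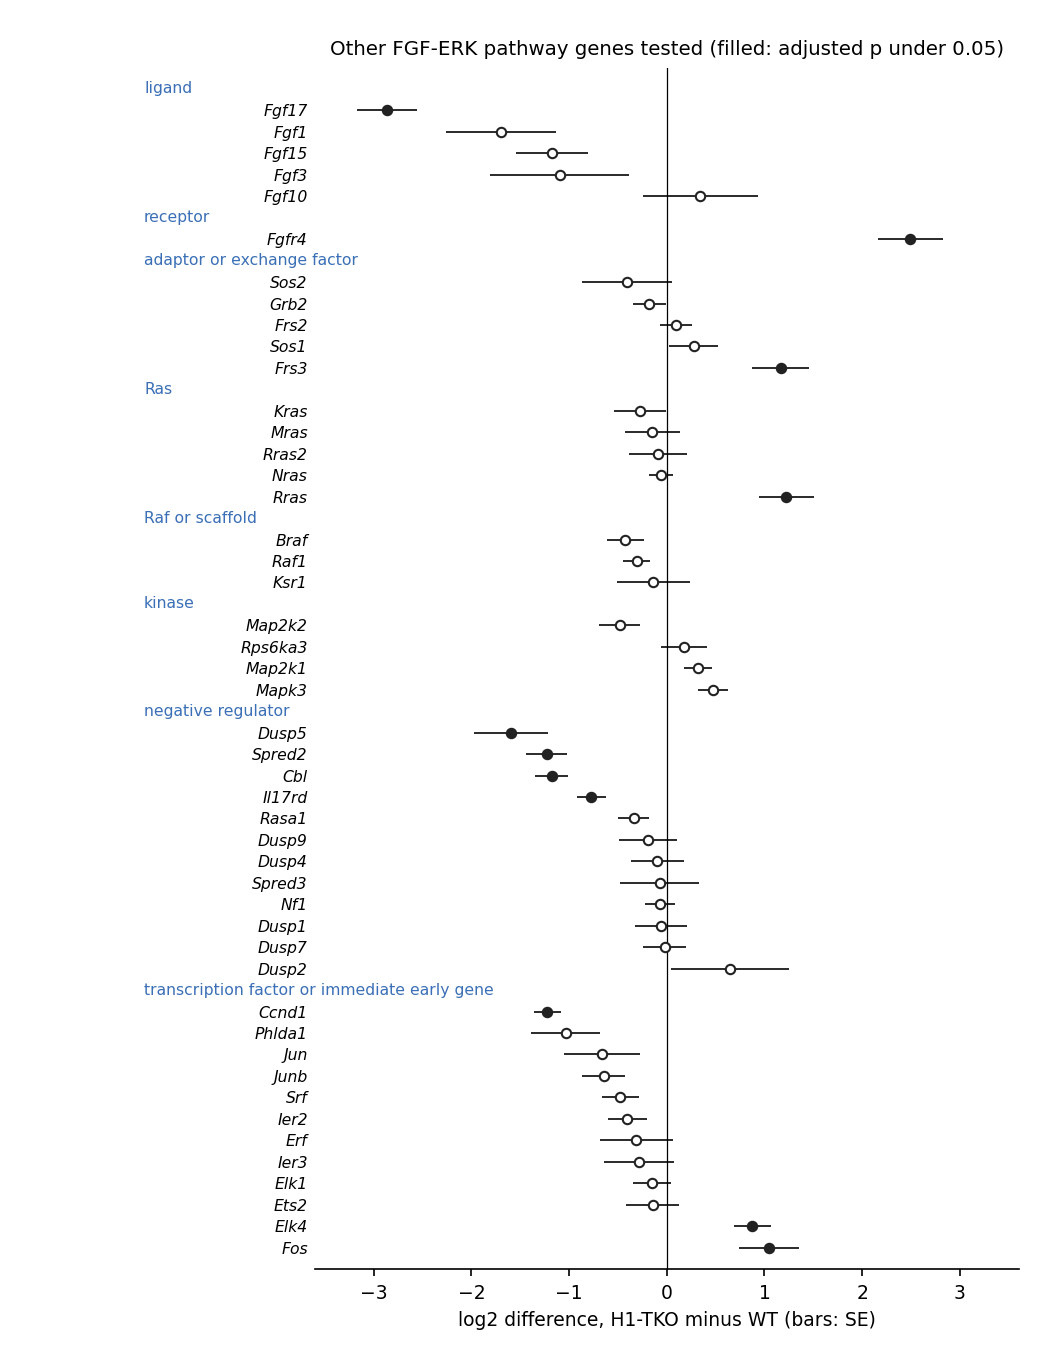
Log2 difference between H1-TKO and WT, with its SE, of the 47 other pathway genes tested, grouped by role. Filled points passed an adjusted p of 0.05, 5 to the right of 0 and 6 to the left, from Fgf17 at −2.87 to Fgfr4 at 2.49.

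H3K27me3, the mark set by PRC2, was examined at the starts of the 10 genes in the peak lists, which held 6957 peaks in WT and 6262 in H1-TKO mESCs. With 1 list per genotype no difference was tested. Peaks lay within 2 kb of a start for 3 of the 10 genes, Fgfr1, Fgfr2 and Egr1, and for 17.1% of 20191 protein-coding genes. Fgf4 and the Dusp6, Spry, Spred1 and Etv genes had none in either list. The 3 genes were the same within 1 kb, within 5 kb and with scores of at least 100 in either list. At that score, however, Fgfr2 and Egr1 had a peak in the WT list only and Fgfr1 in the H1-TKO list only. Of the other pathway genes 23 of 70 had a peak (32.9%). Of those with an RNA difference past the threshold, Fgfr4, Fos and Dusp5 were among them. Fgf17, Frs3, Rras, Spred2, Cbl, Il17rd, Elk4 and Ccnd1 were not.

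At Fgfr1 a peak was listed upstream of the start of the longest protein-coding transcript in both genotypes. Relative to the start it ran from −1539 to −739 bp in WT, with a score of 92.0, and from −1623 to −727 bp in H1-TKO, with a score of 134.6. The score is −10 times the log10 of the p-value of the peak caller and moves with the depth of a library, so it is no measure of the amount of the mark. At Fgfr2, WT had a peak over the start (chr7:137408688-137409766, score 108.5) and a second one of 4029 bp further into the gene (chr7:137404007-137408035, score 62.6). No peak was listed there in H1-TKO mESCs, and the intron stretch printed above lies in the first of these peaks. That peak ran from −7 to 1071 bp relative to the start of the longest protein-coding transcript. The RefSeq promoter of Fgfr2 belongs to another start. In mm9 it lies upstream at chr7:137410273-137410572, outside both peaks.

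Inside Egr1, WT had peaks from 399 to 831 bp and from 867 to 1443 bp after the start, with scores of 60.5 and 115.3. H1-TKO had peaks from 272 to 697 bp and from 1480 to 1975 bp, with scores of 61.4 and 73.5. With 953.5 and 952.2 normalized counts in the WT libraries, Egr1 thus had both listed peaks and RNA in these cell populations.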

How the data were processed

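Paired-end RNA-seq reads were mapped by the authors with Subread to the mm9 annotation, and uniquely mapped reads were counted per RefSeq transcript with featureCounts and divided by DESeq2 size factors. This deposited signal is the normalized count. Each value (100% of them) was a whole multiple of 1 read within 0.01 read. Values of each library equalled the column of its genotype in the study's source table in 100% of 1999 rows compared. ChIP-seq reads were aligned by the authors with bowtie2, who called peaks with MACS, and the deposited score is −10 times the log10 of the p-value. The peak list of replicate 1 of each genotype was used, and replicate 2 was not analysed here.

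Of 34010 transcripts 33650 were given a symbol through RefSeq (GRCm38.p6), which served for names and promoters only. Coordinates are mm9, with GENCODE M1 models. limma 3.58.1 (R 4.3.3, eBayes with trend, two-sided) was run on log2(normalized count + 1) with no replicate term, with p adjusted by Benjamini-Hochberg over all transcripts with a mean of at least 10. The step was tested on simulated data. edgeR 4.0.16 and DESeq2 1.42.0 on recovered reads, other pseudocounts, filters and scalings, a replicate block and each library left out were alternatives. The 10 genes and the lists were chosen with earlier results of these data known. Named were all 10 genes, pathway genes past the threshold, Mapk3, Map2k1, Map2k2, Grb2, Fgf5 and the marker lists, and 1 further gene of this rule is not reported here. Differences were computed as H1-TKO minus WT by the names of the tables.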

Additional observations from a re-analysis of the deposited data

How the results depend on the processing

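Fgf4 kept its call under each alternative pseudocount, filter, scaling and test and with the replicate block, and lost it only when an H1-TKO library was left out. Without filtering of low counts, 1321 transcripts passed, with 7 of the pathway list, and Spry4 (−0.54) and Etv4 (−0.78) lost their calls. edgeR called 2163 transcripts and DESeq2 2417. With the replicate block 3299 transcripts and 17 of the pathway list passed, and the calls of the 7 genes were as without it. Deviations of same-numbered libraries correlated at 0.011. With 2 libraries per genotype this is a single value, so it cannot show whether same-numbered libraries were prepared together. Against the median of its chromosome Egr1 moved to −0.017. With 1 library left out, log2 differences ranged from 0.72 to 0.83 for Fgf4, from −0.69 to −0.39 for Spry4, from −1.06 to −0.49 for Etv4, from 0.34 to 0.56 for Spry2, from −0.52 to −0.10 for Etv5, from −1.08 to 0.15 for Dusp6 and from −0.06 to 0.10 for Egr1. Between 585 and 5468 transcripts passed, and between 4 and 29 of the pathway list, fewest without an H1-TKO library. Egr1 turned to −0.061 without H1-TKO replicate 1, and Dusp6 to 0.15 without WT replicate 1. The cause was not tested. With 2 libraries per genotype the spread rests on few values.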
